A study of Mus musculus with 57 samples.

Results

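Doxorubicin (Doxo) given as 1 high dose and Doxo given as repeated small doses were compared by the RNA of the heart, gene by gene. The comparison used the 38 Ctrl and Doxo hearts among the 57 hearts of the series, and the hearts of mice that also received NMN were not used. In the acute study, 14 Ctrl mice received saline and 13 Doxo mice received 1 intraperitoneal injection of 20 mg/kg. Mice of both groups were also injected intraperitoneally with saline vehicle each day, from 5 days before Doxo to 5 days after it. Hearts were collected on day 5 from animals of cohort 1 that had arrived at 9 weeks of age. In the chronic study, 5 Ctrl mice received PBS and 6 Doxo mice received 5 intraperitoneal injections of 4 mg/kg, which add up to 20 mg/kg, and hearts were collected on day 60 after the first dose from animals of cohort 3 that were 14 to 16 weeks old at injection. All were wild-type male C57BL6/J mice, 1 library came from each heart, and each Doxo group holds the animals that were alive at collection. Both regimens thus reached the same cumulative dose. The daily vehicle injections were part of the acute study only, and chronic mice drank regular water. Dose schedule, daily injections, time since dosing, age, supplier, vehicle and sequencing site changed together and cannot be told apart.

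Doxo is an anthracycline that sits between DNA bases, traps type II topoisomerase on DNA and feeds redox cycling. In cardiomyocytes, broken DNA activates p53, oxidants free NRF2 to switch on glutathione and quinone-reducing enzymes, and damaged protein calls on chaperones and the proteasome. In a failing or overloaded heart, the muscle also re-expresses fetal genes such as Myh7, and lasting injury is often followed by scar collagen.

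The question was which genes responded to Doxo in the acute hearts alone, in the chronic hearts alone, or in both. Each gene had an acute effect (log2 of Doxo over Ctrl in the acute study), a chronic effect (the same in the chronic study) and a difference of these effects, acute minus chronic, tested as an interaction term with the quasi-likelihood test of edgeR and Benjamini-Hochberg adjustment over all genes. A gene was called at an adjusted p under 0.05. The tables shared 25416 gene symbols, of which 14965 passed the filter on low counts. Summed over the shared genes, the acute libraries held 32409622 to 48122748 counts and the chronic libraries 17624351 to 23425344, so that 3 counts, taken as the floor of detection, corresponded to 0.0623 to 0.0926 and to 0.128 to 0.17 CPM, counts scaled to the size of the library. Of the acute counts between 1 and 20, a median of 73.3% per library were even numbers, against 40.2% in the chronic libraries. Where reads entered the acute counts in pairs, the acute totals would stand for fewer independent reads and the floor would lie higher, which was not settled from the files. Halving the acute counts left 9465 acute calls and 3100 interaction calls.

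Hearts that stood apart were noted first. When each heart was placed between the fitted Ctrl level (0) and the fitted acute Doxo level (1) along the acute change, the 14 acute Ctrl hearts lay between -0.04 and 0.04 and 12 of the 13 acute Doxo hearts between 0.397 and 1.24. The library labelled acute Doxo replicate 6 lay at 0.04, among the Ctrl hearts. Of the chronic Doxo hearts, 5 lay between 0.0412 and 0.0765, with a median of 0.0647, and the chronic Ctrl hearts between -0.0286 and 0.0508. Chronic Doxo replicate 2 lay at 0.529, so many chronic values below are given with it and without it. Chronic values given only once include that heart. Summed ventricular cardiomyocyte markers ran from 27750 CPM in an acute Doxo heart to 80920 CPM in a chronic Doxo heart. Their medians were 63140 CPM in acute Ctrl and 51450 CPM in acute Doxo hearts. In the chronic hearts the medians were 70790 CPM in Ctrl and 69850 CPM in Doxo. Of the 6 markers, 5 were called lower and 1 higher in acute Doxo, beside 32.4% and 33.6% of all genes. Tissue other than ventricle varied between hearts. The atrial light chain gene Myl4 was under 100 CPM in 6 of 14 acute Ctrl, 8 of 13 acute Doxo and all 11 chronic hearts. Skeletal muscle myosin Myh4 lay between 268 and 1109 CPM in chronic Ctrl hearts and between 176 and 452 CPM in chronic Doxo hearts, and at most 0.0732 CPM, about the floor of 3 counts, in the acute hearts. In bulk tissue, fewer cells of a type and less RNA per cell cannot be told apart.

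**Figure D1:**
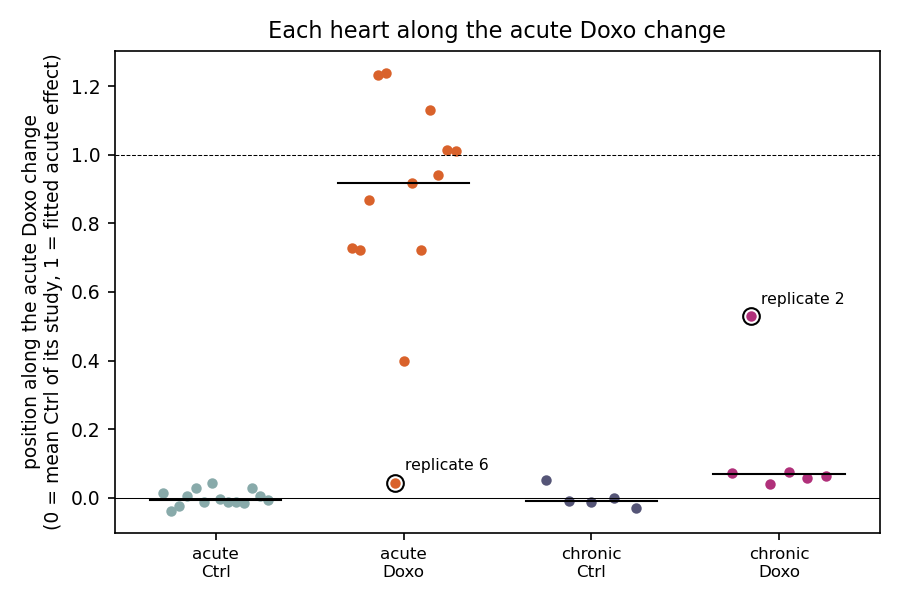
Position of each heart along the acute Doxo change, where 0 is the Ctrl level of its own study and 1 the fitted acute effect; points are hearts, black lines group medians and circles the library labelled acute Doxo replicate 6 and chronic Doxo replicate 2. The other 5 chronic Doxo hearts lie between 0.0412 and 0.0765, far under the acute Doxo median of 0.93 without replicate 6.

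Acute Doxo changed most of the measured transcriptome and chronic Doxo was not detected to change any gene by the same test. In the acute hearts 9879 of 14965 genes were called (66.0%), 5028 higher (33.6%) and 4851 lower (32.4%), and 4667 (31.2%) were also changed by 1.5-fold or more. In the chronic hearts 0 genes were called by edgeR (0.0%), while 805 (5.38%) had an unadjusted p under 0.05, 502 higher (3.35%) and 303 lower (2.02%). DESeq2 called 5 genes (0.0334%), with 813 (5.43%) at an unadjusted p under 0.05, and limma voom with sample weights 66 genes (0.441%), with 1980 (13.2%), in the same chronic hearts. The difference of the effects was called for 2887 genes (19.3%), for 1640 of them with the acute effect above the chronic effect (11%) and for 1247 with it below (8.33%).

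By these calls, 2857 genes were called in the acute but not in the chronic study and differed between the studies. Of them, 1625 were higher and 1232 lower in acute Doxo. They are named below as genes of the acute study alone, which does not mean that their chronic effect was shown to be absent. No gene was called by edgeR in the chronic study alone, in both studies or in opposite directions. By limma voom, of its 66 chronic genes, 50 were called in both studies in the same direction, 4 in opposite directions and 7 in the chronic study alone with a called difference. For 7022 genes called in the acute study the difference between the studies was not called, so they could not be put on either side, and 30 genes were called in the difference but in neither study. The chronic groups are small, and the fit estimated the spread of each gene between hearts over both studies together. The median standard error of a log2 effect was 0.178 in the chronic study and 0.111 in the acute study. With each study fitted alone, the common dispersion, a measure of that spread, was 0.0338 in the chronic and 0.0717 in the acute study. The chronic study alone gave 0 calls among 13037 genes, with a lowest adjusted p of 0.119 (edgeR). Of the 4667 genes changed by 1.5-fold or more in acute Doxo, 1148 (24.6%) had a chronic 95% interval that lay wholly within a 1.5-fold change, 17 had one wholly outside it, and for 3452 the interval crossed that limit. Without chronic Doxo replicate 2, the difference was called for 3970 genes (26.5%) and the chronic effect again for 0, with 393 (2.63%) at an unadjusted p under 0.05. Without the library labelled acute Doxo replicate 6 the difference was called for 4604 genes. With Myh4 as a covariate among the chronic hearts the difference was called for 459 genes, and among hearts under 100 CPM of Myl4 for 743. What skeletal muscle RNA and atrial tissue contributed was not tested further.

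**Figure D2:**
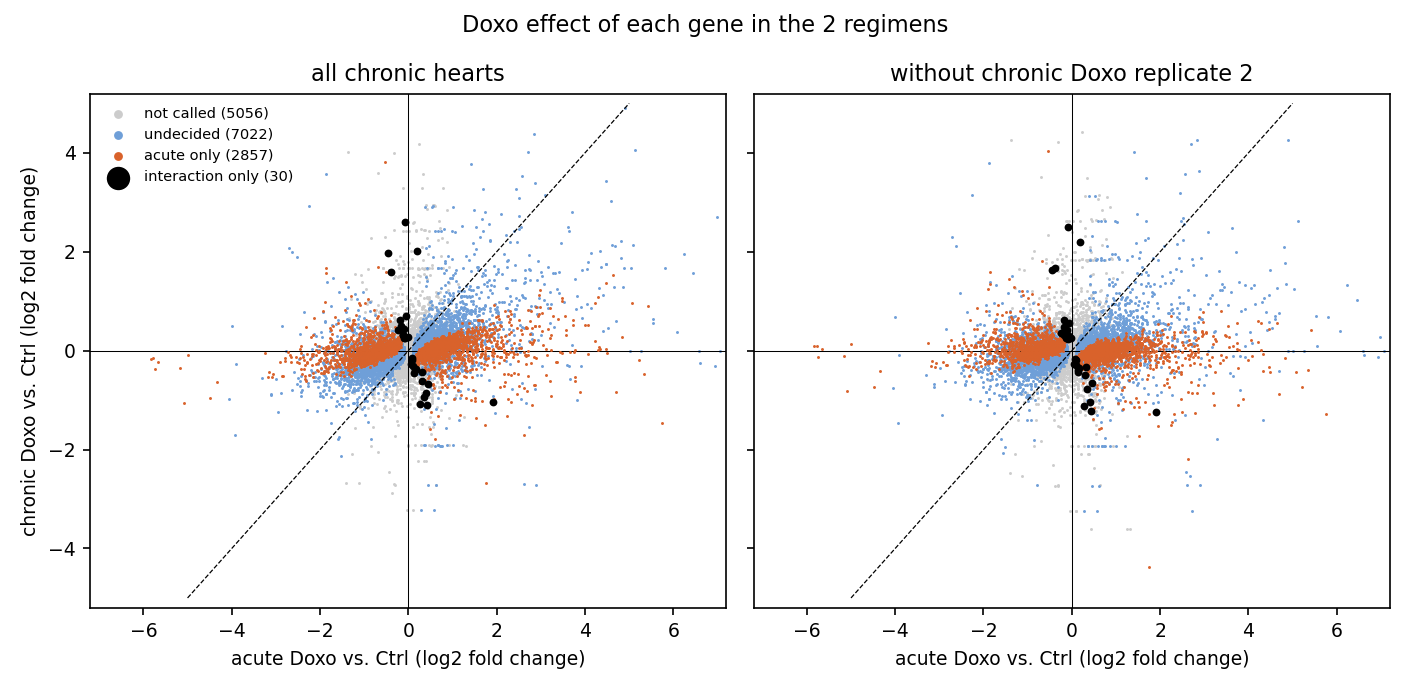
Chronic Doxo effect (log2, vertical) against acute Doxo effect (log2, horizontal) for 14965 genes, with all hearts on the left and without chronic Doxo replicate 2 on the right; colours are the classes of genes and the dashed line marks equal effects. The cloud is wide along the acute axis and narrow along the chronic axis, and it narrows further on the right, where the slope falls from 0.173 to 0.0754.

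Although edgeR called no single chronic effect, the chronic effects leaned the way of the acute effects, in steps. Genes that rose over 4-fold in acute Doxo had a median chronic effect of 0.48 on the log2 scale, those that rose 2- to 4-fold 0.25, and those that rose 1.5- to 2-fold 0.14. Genes that fell over 4-fold had a median chronic effect of -0.27, those that fell 2- to 4-fold -0.19, and those that hardly changed 0.00. Much of this came with a single heart. Without chronic Doxo replicate 2 the medians at the outer ends were 0.17 and -0.12. The share of genes with the same sign in both studies was 65.8% over all 14965 genes and 75.4% over the 4667 genes changed by 1.5-fold or more, and without that heart 57.5% and 64.1%. Pearson's r between the effects across all genes was 0.337 with it and 0.158 without it, as a description of genes that share libraries. Among the 2857 genes of the acute study alone, the same-sign share was 57.7% with that heart and 42.2% without it. These genes were picked by a difference in the direction of the acute effect, which by itself lowers the share. In the acute-called genes without a called difference, a pick that raises the share, it was 78.15% and 68.87%.

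**Figure D3:**
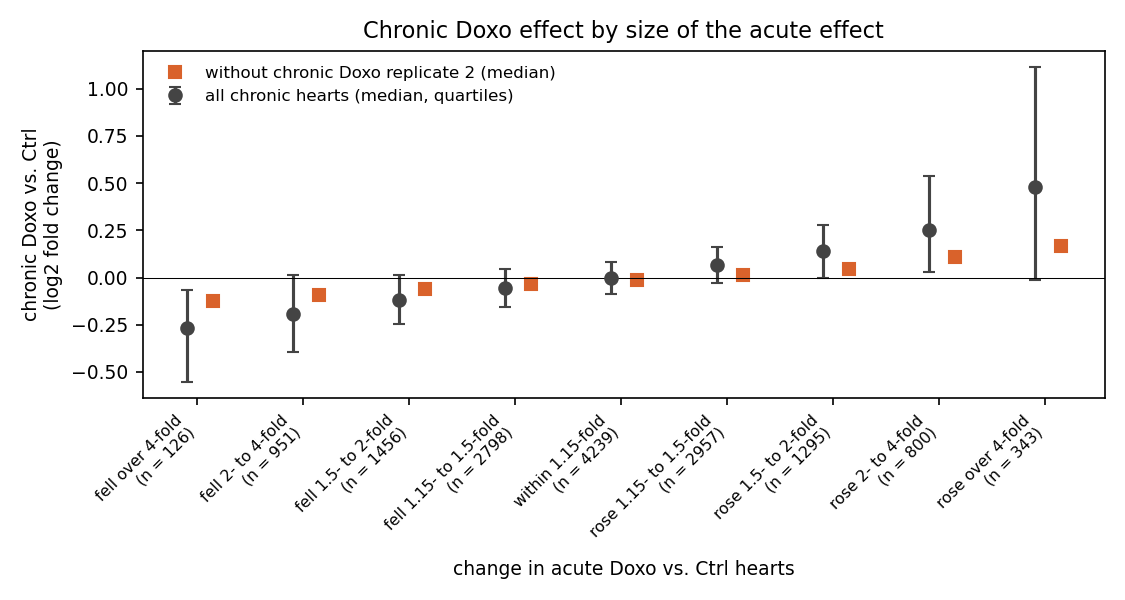
Median chronic Doxo effect (log2, points) with its quartiles (bars) in bins of genes by their acute effect, and the medians without chronic Doxo replicate 2. Medians rise in order from -0.27 in genes that fell over 4-fold to 0.48 in genes that rose over 4-fold, and from -0.12 to 0.17 without that heart.

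NRF2 target genes rose in the acute hearts and not detectably in the chronic hearts. Of 23 measured NRF2 target genes, 18 rose in acute Doxo and 0 fell, beside 33.6% and 32.4% of all genes, and 13 had an acute effect called above the chronic one, beside 11%. The median acute effect of the list was 0.68 and its median chronic effect -0.06 (-0.07 without replicate 2), where the medians over all genes were 0.00 and 0.00. Nqo1, which reduces quinones (chr8:107388225-107403206 in GRCm38, minus strand), lay between 29.6 and 49.9 CPM in acute Ctrl hearts (median 36.8) and between 48.1 and 613 CPM in acute Doxo hearts (median 214). In the chronic study it was at 25.7, 38.9, 42.9, 40.6 and 39.4 CPM in Ctrl hearts and at 37.3 to 103 CPM in Doxo hearts (median 42.7), with the top value in replicate 2. The acute groups overlapped only by their edges. The chronic groups shared the stretch from 37.3 to 42.9 CPM, with Doxo hearts both within it and above it. Its acute effect was 2.68 ± 0.23 (log2 ± SE) with an adjusted p of 8.4e-11 (edgeR), its chronic effect 0.46 ± 0.36, and the difference 2.22 ± 0.42 with an adjusted p of 0.00227. Hmox1, the haem-degrading oxygenase, had effects of 3.17 and 0.43 (chronic -0.13 without replicate 2). Srxn1, which repairs oxidised peroxiredoxins, had effects of 2.09 and -0.12, and Gclm, the modifier subunit of the enzyme that starts glutathione synthesis, 2.0 and 0.43 (0.03 without replicate 2). All 3 differences were called (adjusted p of 0.00506, 0.00698 and 0.0114, edgeR), that on Srxn1 not with the replicate number as a block (0.0577) and that on Gclm not with Myh4 as a covariate (0.0574).

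The promoters of Srxn1 and Gclm are shown because both genes had an acute effect near 4-fold and chronic effects of -0.12 and 0.43 (0.03 for Gclm without replicate 2), and both carry the core of the antioxidant response element, the sequence NRF2 binds with small MAF proteins. The windows run from 250 bases before to 50 after the start of the RefSeq transcript in GRCm38.p6, 5′ to 3′ on the gene's strand, with the matches to TGACNNNGC, TGAGNNNGC or their reverse complements GCNNNGTCA and GCNNNCTCA in capitals. The Srxn1 window (chr2:152105274-152105573, plus strand) holds matches that begin at -158, -45 and 28 bases from the start base, and the Gclm window (chr3:122245307-122245606, plus strand) 1 at -134.
Srxn1: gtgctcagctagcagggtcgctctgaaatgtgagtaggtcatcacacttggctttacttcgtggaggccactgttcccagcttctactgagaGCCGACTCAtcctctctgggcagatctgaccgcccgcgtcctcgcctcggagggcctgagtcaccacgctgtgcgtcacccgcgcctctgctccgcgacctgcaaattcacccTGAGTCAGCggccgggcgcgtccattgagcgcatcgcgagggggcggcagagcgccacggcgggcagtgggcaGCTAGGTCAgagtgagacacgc
Gclm: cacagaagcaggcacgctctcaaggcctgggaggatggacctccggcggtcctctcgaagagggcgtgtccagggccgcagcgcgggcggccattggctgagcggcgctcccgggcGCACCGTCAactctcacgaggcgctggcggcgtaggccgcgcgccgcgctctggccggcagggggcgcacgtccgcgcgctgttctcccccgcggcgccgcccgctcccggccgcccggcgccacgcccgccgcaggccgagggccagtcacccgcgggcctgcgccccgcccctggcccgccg
Such a match stood in 13 of the 19 NRF2 target genes that had a window (68.4%), and in 4005 of 11279 measured genes (35.5%). The letters are short and common, and a match is a description of the sequence.

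Proteasome subunit and translation initiation factor genes rose in the acute hearts as well. Of 47 proteasome subunit genes, 33 rose and 7 fell in acute Doxo, beside 33.6% and 32.4% of all genes, and 25 had an acute effect above the chronic one, beside 11%. These shares of all genes, and the 19.3% with a called difference on either side, stand as the background of each list that follows. Their median effects were 0.41 and -0.04 (-0.05 without replicate 2). Psmc1, an ATPase of the regulatory particle (chr12:100110154-100123405, plus strand), was at 103 to 126 CPM in acute Ctrl hearts (median 111) and at 115 to 379 CPM in acute Doxo hearts (median 245). In chronic Ctrl hearts it was at 145, 157, 148, 156 and 160 CPM, and in chronic Doxo hearts at 145 to 227 CPM (median 154). The chronic groups overlapped apart from the 227 CPM of replicate 2, and the effects were 1.17 ± 0.11 and 0.11 ± 0.17 (0.00 without replicate 2). Adrm1, a ubiquitin receptor of the proteasome, had effects of 0.82 and -0.04, and its acute groups did not overlap, as was so for 62 genes that were higher (0.414%). Sqstm1, which hands ubiquitinated cargo to autophagy, had effects of 1.81 and 0.42, the latter 0.02 without replicate 2. Of 36 translation initiation factor genes, 30 rose and 1 fell in acute Doxo, 17 had an acute effect above the chronic one, and the medians were 0.42 and 0.08 (0.02 without replicate 2).

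Cytosolic ribosomal protein genes behaved otherwise. Of 80, 74 rose in acute Doxo and 1 fell, with a median of 0.44, but the difference between the studies was called for 8. Their chronic median was 0.16, 77 of 80 had the same sign in both studies, and 6 had an unadjusted chronic p under 0.05 on the higher side (3.35% of all genes). Without replicate 2 the chronic median was 0.09, 69 had the same sign, 1 had such a p and the difference was called for 38. Ribosomal protein genes have many processed copies in the genome, among which reads can be shared.

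Damage and inflammation genes rose in the acute study. Among 28 p53 target genes, 16 rose and 2 fell in acute Doxo (33.6% and 32.4% of all genes), 9 had an acute effect above the chronic one (11% of all genes), and the medians were 0.57 and 0.05 (0.02 without replicate 2). Btg2, an antiproliferative p53 target, had effects of 3.03 ± 0.25 and 0.41 ± 0.40, a called difference (adjusted p of 0.00188, edgeR). Cdkn1a, which encodes the cell cycle inhibitor p21, turned on 1 heart: chronic Ctrl hearts had 17.7, 15.1, 17.4, 16.6 and 17 CPM and chronic Doxo hearts 15 to 116 CPM (median 23.1). Its effects were 1.53 ± 0.22 and 1.15 ± 0.36, with an adjusted p of the difference of 0.531, and without replicate 2 the chronic effect was 0.36 and that p 0.00738 (edgeR).

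Of 25 cytokine and inflammation genes, 19 rose and 2 fell in acute Doxo, 9 had an acute effect above and 1 below the chronic one, and the medians were 1.57 and -0.05. Serpina3n, an acute-phase serine protease inhibitor among the 6 genes with the smallest interaction p on the higher side of the acute study alone (chr12:104406729-104414329, plus strand), was at 5.41 to 16.5 CPM in acute Ctrl hearts (median 8.95) and at 7.05 to 807 CPM in acute Doxo hearts (median 262). In chronic Ctrl hearts it was at 13.9, 12.3, 10.4, 9.26 and 7.5 CPM, and in chronic Doxo hearts at 7.98 to 29.7 CPM (median 9.52). The lowest acute Doxo value was that of replicate 6, and the chronic groups overlapped. Its effects were 4.83 ± 0.37 and 0.28 ± 0.61 (-0.15 without replicate 2), with a difference of 4.55 ± 0.71 and an adjusted p of 0.00137 (edgeR). Socs3, the feedback inhibitor of interleukin-6 signalling, had effects of 4.29 and 0.01. Among 22 AP-1 and immediate early genes, 14 rose and 1 fell in acute Doxo, with medians of 0.96 and 0.14 (0.20 without replicate 2), and Ier3, an immediate early survival gene, had effects of 2.0 and -0.11. All 10 measured neutrophil genes rose in acute Doxo, with a median of 4.35 beside 1.47 in the chronic study (0.59 without replicate 2), and the difference was called for 0 of them. Their levels were low and uneven. S100a8, a neutrophil alarmin, had a median of 5.45 CPM in acute Doxo and 0.512 CPM in chronic Doxo hearts. Acute Doxo replicate 13 held the most of it, 107 CPM. Summed neutrophil markers, of which 5 of 6 were measured, had medians of 2.61 CPM in acute Ctrl and 16.2 CPM in acute Doxo hearts (highest 264). What these cells contributed to the inflammation genes was not tested.

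Glucocorticoid-induced and clock genes rose in acute Doxo. Of 16 glucocorticoid-induced genes, 11 rose and 1 fell in acute Doxo, and 5 had an unadjusted chronic p under 0.05 on the higher side, beside 3.35% of all genes, and 0 without replicate 2. Fkbp5, the steroid receptor cochaperone (chr17:28399094-28517527, minus strand), was at 32.6 to 91.1 CPM in acute Ctrl hearts (median 49.1) and at 32.5 to 228 CPM in acute Doxo hearts (median 174). Chronic Ctrl hearts had 12.8, 16.4, 12.6, 13.9 and 16.4 CPM, 5 chronic Doxo hearts 12.7 to 17.4 CPM and replicate 2 196 CPM. That heart alone set the chronic effect, 1.64 ± 0.49 with it and 0.05 without it, and the adjusted p of the difference, 0.947 with it and 0.00173 without it (edgeR). Of 19 circadian clock genes, 12 rose and 2 fell in acute Doxo, with medians of 0.53 and 0.04, and Per1, a clock repressor that glucocorticoids also induce, had effects of 2.98 and 0.88 (0.59 without replicate 2). The hour of collection is not given in the sources used here.

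Cirbp and Rbm3, RNA-binding proteins known for their rise in cooled cells, had some of the smallest acute p-values and also differed between the studies. Rbm3 was at 30.6 to 49.2 CPM in acute Ctrl hearts (median 41.2), 30.3 to 232 CPM in acute Doxo (median 179), 49, 42.2, 42, 48.2 and 39.8 CPM in chronic Ctrl and 53.7 to 119 CPM in chronic Doxo (median 58.2). The chronic groups did not overlap, yet the chronic effect of 0.64 ± 0.25 was not called (adjusted p of 0.859, edgeR), beside an acute effect of 2.05 ± 0.16. Cirbp had effects of 2.19 and 0.81 (0.54 without replicate 2), and its chronic groups did not overlap either.

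**Figure D4:**
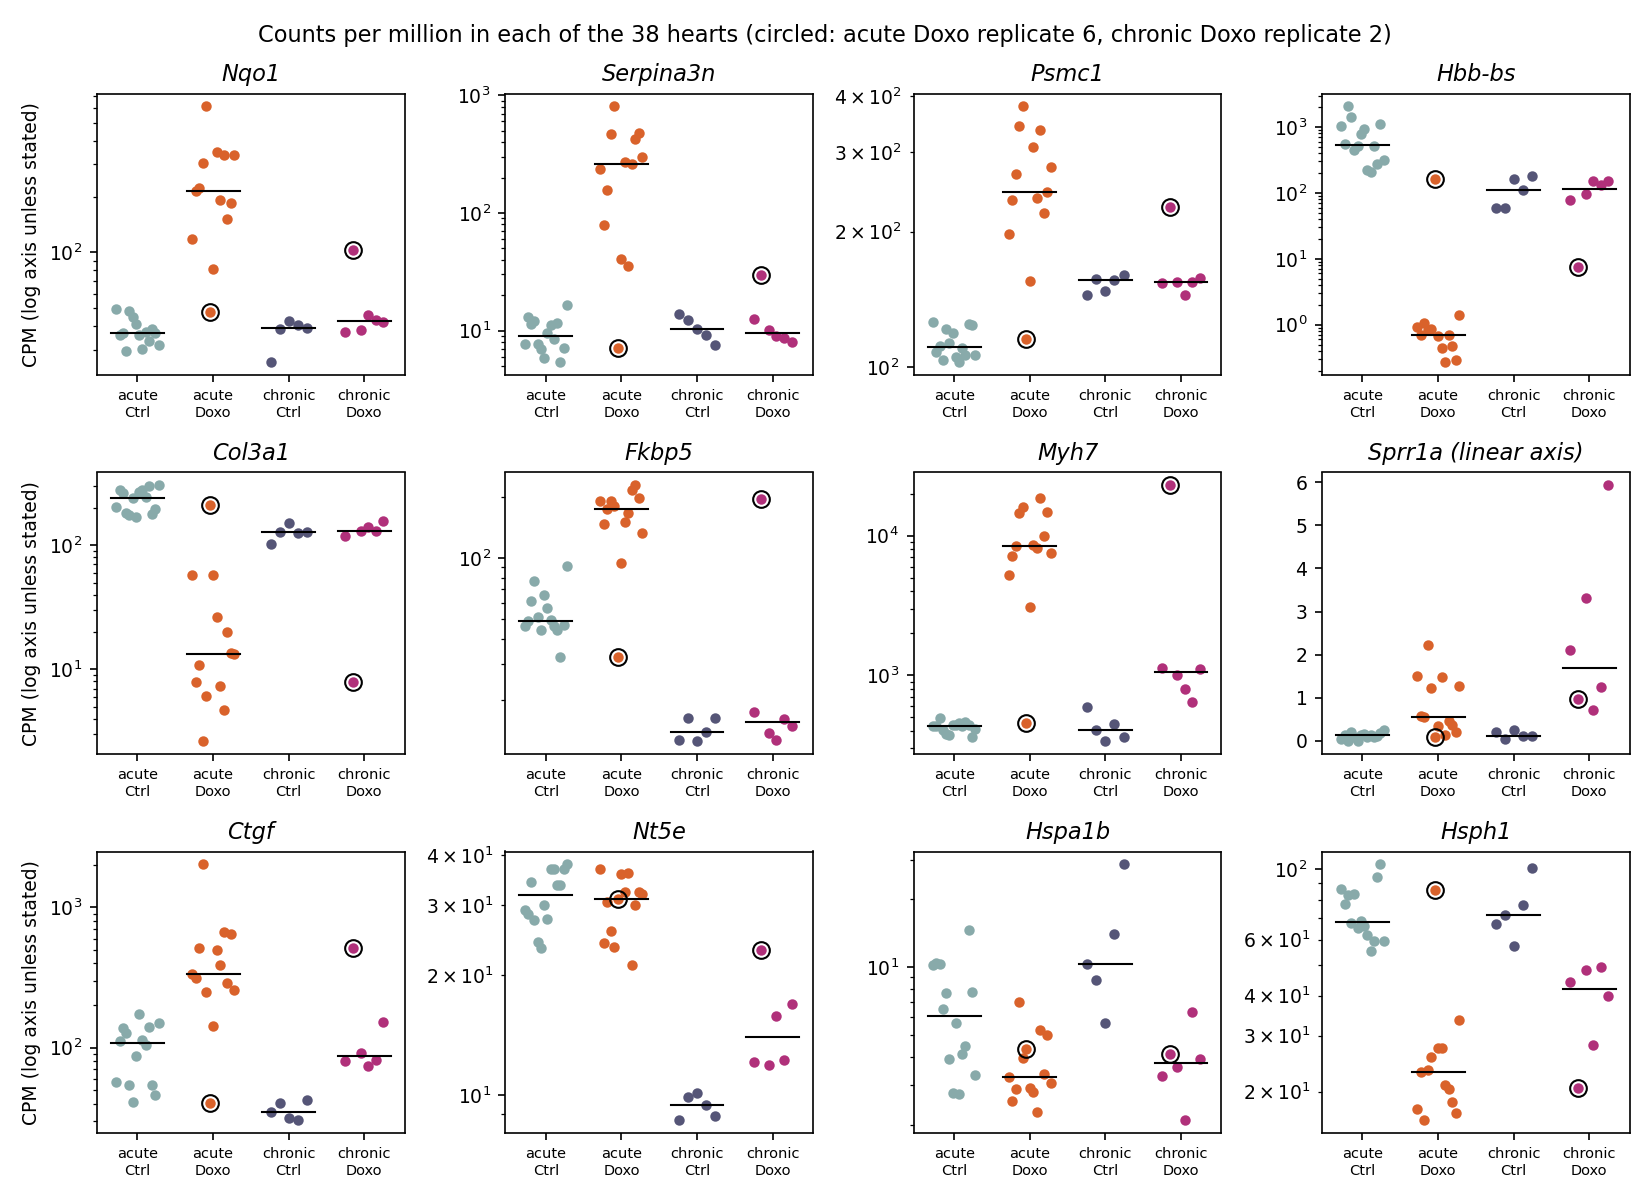
CPM of 12 genes in each heart of the 4 groups, on log axes apart from Sprr1a (linear); points are hearts, lines are medians and circles the library labelled acute Doxo replicate 6 and chronic Doxo replicate 2. Nqo1, Serpina3n and Psmc1 are high in acute Doxo hearts other than replicate 6, Fkbp5 is high in 1 chronic Doxo heart at 196 CPM, and Sprr1a, Nt5e and Ctgf are higher in every chronic Doxo heart than in any chronic Ctrl heart.

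Matrix and red cell genes fell in the acute hearts. Of 39 measured collagen genes, 24 fell and 3 rose in acute Doxo, and 17 had an acute effect below the chronic one, beside 8.33% of all genes. Their medians were -0.75 and 0.02 (0.15 without replicate 2). Of 27 matrix and fibrosis genes, 17 fell and 8 rose, with medians of -0.80 and 0.07 (0.17 without replicate 2). Col3a1, the fibrillar collagen of type III (chr1:45311538-45349706, plus strand), was at 170 to 304 CPM in acute Ctrl hearts (median 242) and 2.65 to 210 CPM in acute Doxo hearts (median 13.3). Chronic Ctrl hearts had 101, 127, 150, 126 and 128 CPM, 5 chronic Doxo hearts 119 to 157 CPM and replicate 2 7.86 CPM. Replicate 6 was the highest of the acute Doxo hearts, and replicate 2 was the one chronic heart at the acute Doxo level. The effects were -2.80 ± 0.44 and -0.14 ± 0.69 (0.10 without replicate 2), and the adjusted p of the difference was 0.028 (0.00982 without replicate 2, edgeR). The call on Col3a1 was lost without chronic Ctrl replicate 1 (0.0515) or 4 (0.0503), among hearts under 100 CPM of Myl4 (0.154) and with Myh4 as a covariate (0.185). Col6a1 had effects of -1.91 and -0.05 and Fbn1, the microfibril protein fibrillin, -1.25 and 0.07, and their called differences were lost among hearts under 100 CPM of Myl4 (adjusted p of 0.0607 and 0.0521, edgeR) and with Myh4 as a covariate (0.0836 and 0.0835). The 3 fibroblast markers that are not collagens (Pdgfra, Dcn and Tcf21) summed to 358 to 701 CPM in acute Ctrl, 359 to 1159 CPM in acute Doxo, 282 to 387 CPM in chronic Ctrl and 325 to 429 CPM in chronic Doxo hearts. Most of that sum was Dcn, at 313 to 1087 CPM in the acute hearts. With Col1a1, Col1a2 and Col3a1 included, the sum had medians of 1061 CPM in acute Ctrl and 819 CPM in acute Doxo hearts. In the chronic hearts these medians were 680 CPM in Ctrl and 694 CPM in Doxo.

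Of 13 haemoglobin and red cell genes, 11 fell and 0 rose in acute Doxo, 8 had an acute effect below the chronic one, and the medians were -4.99 and -0.22 (-0.02 without replicate 2). Hbb-bs, an adult beta-globin (chr7:103826534-103828096, minus strand), was at 210 to 2063 CPM in acute Ctrl hearts (median 542) and 0.272 to 160 CPM in acute Doxo hearts (median 0.698), with the top value in replicate 6. The chronic Ctrl hearts held 60, 58.5, 165, 110 and 183 CPM, and chronic Doxo hearts 7.4 to 153 CPM (median 114), with the bottom value in replicate 2. The acute groups did not overlap, as was so for 70 genes that were lower (0.468%), and the effects were -5.84 ± 0.76 and -0.16 ± 1.19, with a called difference (adjusted p of 0.0153, edgeR) that was lost among hearts under 100 CPM of Myl4 (0.069) and with Myh4 as a covariate (0.124). Globin genes are near-identical copies, among which reads can be split. Ramp1, a receptor partner for calcitonin gene-related peptide and the lower gene of the acute study alone whose interaction p was smallest, fell by 1.28 in acute Doxo, while its chronic groups did not overlap on the higher side (effect 0.42 ± 0.21, 0.46 without replicate 2).

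Muscle and metabolic genes gave single cases more than whole lists. Of 14 fetal and stretch programme genes, 8 rose and 4 fell in acute Doxo, and 8 differed between the studies, 6 with the acute effect above. Ankrd23, a stretch-sensing titin partner, had effects of 1.76 and -0.16. Lpl, the lipase that frees fatty acids from circulating lipoproteins, had effects of 1.22 and 0.07, and Ppp1r3a, which targets a phosphatase to glycogen, 1.74 and -0.07. Ppargc1a, the coactivator of mitochondrial genes, fell by 1.46 in acute Doxo and had a chronic effect of 0.31 (0.15 without replicate 2). Of 82 nuclear respiratory chain genes, 23 fell and 7 rose in acute Doxo, a smaller share on either side than the 32.4% and 33.6% of all genes, the difference was called for 1, and the medians were -0.08 and -0.07 (-0.03 without replicate 2). Of 77 mitochondrial ribosomal protein genes, 44 fell and 9 rose, with medians of -0.24 and -0.06 and a called difference for 9.

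Where the chronic hearts did separate, they mostly did so on the acute side. Non-overlap asks every chronic Doxo heart to lie beyond all Ctrl hearts, replicate 2 included. That heart lay at 0.529 along the acute change, which by itself favours genes on the acute side. The counts were not made without it. Chronic Doxo and Ctrl hearts did not overlap for 80 genes that were higher (0.535%) and 47 that were lower (0.314%). Of the 80, 51 were called higher in acute Doxo, 7 lower and 22 neither, beside 33.6% and 32.4% of all genes called higher and lower. Of the 47, 32 were called lower in acute Doxo and 0 higher. None of these genes passed the chronic test of edgeR.

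Myh7, the slow myosin heavy chain of the fetal ventricle (chr14:54970684-54994626, minus strand), was at 359 to 497 CPM in acute Ctrl hearts (median 435) and 455 to 18530 CPM in acute Doxo hearts (median 8410). Chronic Ctrl hearts had 588, 404, 338, 449 and 360 CPM, and chronic Doxo hearts 643 to 22950 CPM (median 1058). The chronic groups did not overlap, and replicate 2 was far above the other 5. The effects were 4.47 ± 0.41 and 3.43 ± 0.64, the chronic one with an adjusted p of 0.206 by edgeR, 0.0142 by DESeq2 and 0.00272 by limma voom. Without replicate 2 the chronic effect was 1.13, and the difference between the studies, not called with it (adjusted p of 0.32), had an adjusted p of 0.000116 (edgeR). The chronic effect was called when the library labelled acute Doxo replicate 6 (adjusted p of 0.0401) or chronic Doxo replicate 5 (0.0388) was left out.

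Sprr1a, a small proline-rich protein that stressed cardiomyocytes induce (chr3:92483952-92485895, minus strand), was at 0.214, 0.0474, 0.243, 0.105 and 0.11 CPM in chronic Ctrl hearts and at 0.716 to 5.93 CPM in chronic Doxo hearts (median 1.68). The chronic groups did not overlap, and 3 of the Ctrl values were under the floor of 3 counts, so the size of the change depends on very few reads. In the acute study it was at 0 to 0.258 CPM in Ctrl and 0.1 to 2.23 CPM in Doxo hearts (median 0.557). The effects were 2.71 ± 0.45 and 4.02 ± 0.79, the chronic one with an adjusted p of 0.101 by edgeR, 0.000407 by DESeq2 and 0.0104 by limma voom, and 4.18 without replicate 2. As for Myh7, leaving out acute Doxo replicate 6 or chronic Doxo replicate 5 brought edgeR's adjusted p under the threshold. The difference between the studies was not called (-1.32 ± 0.91, adjusted p of 0.293, edgeR).

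Ctgf and Tgfb2, secreted factors known for their part in fibrosis, lay higher in every chronic Doxo heart than in any chronic Ctrl heart. Ctgf, a matricellular factor that fibroblasts and cardiomyocytes secrete, was at 34.8, 40.1, 31.4, 30.5 and 42.4 CPM in chronic Ctrl and at 74 to 512 CPM in chronic Doxo hearts (median 86.7), without overlap. Its effects were 2.29 ± 0.36 and 2.20 ± 0.57 (1.42 without replicate 2), the latter with an adjusted p of 0.625 by edgeR and 0.0137 by limma voom. Tgfb2, a transforming growth factor ligand, was at 13.6, 9.76, 9.69, 9.2 and 10.2 CPM in chronic Ctrl and at 15 to 25.6 CPM in chronic Doxo hearts (median 18.2), again without overlap. Its effects were 0.62 ± 0.15 and 0.89 ± 0.23 (0.95 without replicate 2), the latter with an adjusted p of 0.625 by edgeR and 0.000469 by limma voom. Neither gene differed between the studies by the test. On the lower side, Camk2b, a subunit of the calmodulin-dependent kinase, was at 17.9 to 20.8 CPM in chronic Ctrl and at 10.7 to 16.3 CPM in chronic Doxo hearts, with effects of -0.81 and -0.50 (-0.44 without replicate 2). The other genes that DESeq2 called in the chronic hearts were Nt5e, Hspa1b and Cdhr3, a cadherin whose chronic effect was 2.52 with replicate 2 and 0.93 without it.

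Chaperone genes leaned lower in chronic Doxo with and without the heart that stood apart. Of 17 heat shock and chaperone genes, 7 had an unadjusted chronic p under 0.05 on the lower side, beside 2.02% of all genes, and 6 without replicate 2, while 0 were called after adjustment (edgeR). In acute Doxo 7 fell and 4 rose, and the difference was called for 2. The list medians were -0.05 and -0.19 (-0.20 without replicate 2). Hspa1b, the inducible HSP70 (chr17:34956436-34959238, minus strand), was at 2.74 to 14.6 CPM in acute Ctrl hearts (median 6.09), 2.28 to 7 CPM in acute Doxo (median 3.26), 10.3, 8.81, 5.65, 14 and 28.6 CPM in chronic Ctrl and 2.1 to 6.35 CPM in chronic Doxo (median 3.75). One chronic Doxo heart overlapped the lowest Ctrl heart. The effects were -0.85 ± 0.24 and -1.79 ± 0.39 (-1.80 without replicate 2), the chronic one with an adjusted p of 0.245 by edgeR and 0.0142 by DESeq2. Hspa1a, its near-identical neighbour with which reads can be shared, had effects of -0.26 and -1.43.

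Hsph1, a nucleotide exchange partner of HSP70 (chr5:149614287-149636376, minus strand), was at 67.2, 71.4, 57.4, 77.2 and 100 CPM in chronic Ctrl hearts and at 20.6 to 49.2 CPM in chronic Doxo hearts (median 42), without overlap. Its effects were -1.42 ± 0.18 and -0.96 ± 0.29 (-0.84 without replicate 2), the chronic one with an adjusted p of 0.755 by edgeR and 0.0131 by limma voom. Dnaja1, an HSP40 that delivers substrates to HSP70, had effects of -0.83 and -0.79 (-0.68 without replicate 2). Hspe1, the mitochondrial chaperonin lid, had effects of -0.47 and -0.32 and Hsp90aa1, the inducible HSP90, 0.00 and -0.43. Hspb7, a small heat shock protein of heart muscle, went the other way, with effects of 1.33 and 0.36 (0.16 without replicate 2) and a called difference (adjusted p of 0.0119, edgeR) that was lost among hearts under 100 CPM of Myl4 (0.0521), with Myh4 as a covariate (0.0604) and with the replicate number as a block (0.055).

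The promoters of Hsph1 and Hspe1 are shown because they carry the heat shock element, the paired repeat bound by HSF1, in 2 chaperone genes whose effects were negative in both studies. Windows are as above, from RefSeq in GRCm38.p6, with matches to GAANNTTCNNGAA or TTCNNGAANNTTC, on either strand, in capitals. The Hsph1 window (chr5:149636287-149636586, minus strand) holds 1 match that begins at 36, and the Hspe1 window (chr1:55087898-55088197, plus strand) overlapping matches from -89 and -84.
Hsph1: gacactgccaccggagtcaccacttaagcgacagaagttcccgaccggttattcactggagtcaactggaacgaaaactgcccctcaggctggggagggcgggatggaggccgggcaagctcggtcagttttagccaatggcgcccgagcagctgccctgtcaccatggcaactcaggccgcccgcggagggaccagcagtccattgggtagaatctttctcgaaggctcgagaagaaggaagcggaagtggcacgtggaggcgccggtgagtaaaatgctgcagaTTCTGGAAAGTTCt
Hspe1: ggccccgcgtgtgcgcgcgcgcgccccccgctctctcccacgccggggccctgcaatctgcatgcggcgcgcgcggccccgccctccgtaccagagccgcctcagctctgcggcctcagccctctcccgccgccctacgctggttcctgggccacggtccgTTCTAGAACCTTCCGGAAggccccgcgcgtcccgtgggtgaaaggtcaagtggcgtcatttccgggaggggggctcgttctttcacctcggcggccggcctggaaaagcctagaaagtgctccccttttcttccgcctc
The element stood in 3 of the 12 chaperone genes that had a window (25%), in 61 of 11279 measured genes (0.541%) and in 0 of 19 NRF2 target genes. The third was Hspd1, which lies head to head with Hspe1, so their windows overlap. No match says only that these letters are not in the window.

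**Figure D5:**
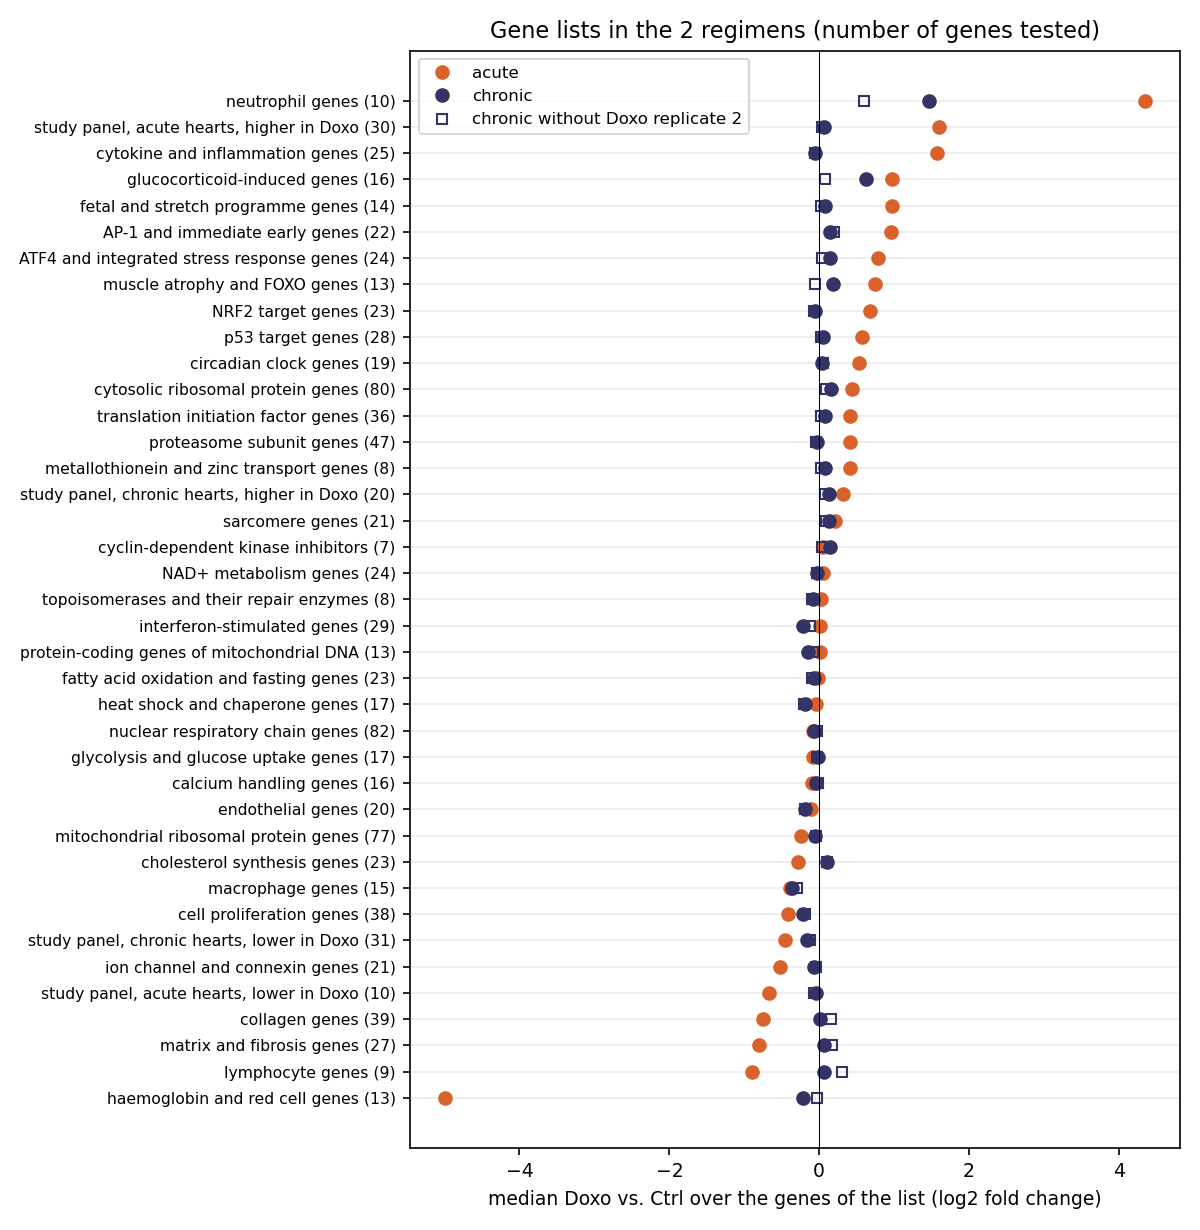
Median Doxo effect (log2) of each gene list in the acute study, in the chronic study and in the chronic study without chronic Doxo replicate 2. Acute medians run from -4.99 for red cell genes to 4.35 for neutrophil genes, while chronic medians run from -0.37 for macrophage genes to 1.47 for neutrophil genes (0.59 without replicate 2), with 0.63 for glucocorticoid-induced genes (0.08 without it).

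Among the 30 genes called in the difference alone, 29 had opposite signs in the studies. They were picked by a called difference with neither effect called, which by itself favours opposite signs. Over all genes, 65.8% had the same sign. Nt5e, the ectoenzyme that makes adenosine from AMP (chr9:88327197-88372092, plus strand), was at 23.4 to 38 CPM in acute Ctrl and 21.3 to 36.9 CPM in acute Doxo hearts, with medians of 31.8 and 31. Chronic Ctrl hearts had 8.68, 9.9, 10.1, 9.46 and 8.88 CPM and chronic Doxo hearts 11.9 to 23.2 CPM (median 14). The acute groups overlapped almost fully and the chronic groups did not. The effects were -0.06 ± 0.09 and 0.71 ± 0.16 (0.55 without replicate 2), and the difference was -0.77 ± 0.18 with an adjusted p of 0.0066 (edgeR). The chronic effect itself had an adjusted p of 0.245 by edgeR and 0.0381 by DESeq2. Brca1, a DNA repair gene, had effects of -0.39 ± 0.23 and 1.60 ± 0.44 (1.68 without replicate 2) and a called difference (adjusted p of 0.00735, edgeR), at levels of 0.0523 to 0.276 CPM in chronic Ctrl and 0.215 to 0.811 CPM in chronic Doxo hearts, near the floor. That call was lost with Myh4 as a covariate (0.0739) and with the replicate number as a block (0.0631).

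Cep128, a centriole protein, had opposite signs in the studies. It was at 8.55 to 13.2 CPM in acute Ctrl hearts (median 10.7), 4.61 to 11.2 CPM in acute Doxo (median 7.54), 4.5, 6.73, 8.42, 9.05 and 7.01 CPM in chronic Ctrl and 9.56 to 11.1 CPM in chronic Doxo (median 10.3). The chronic groups did not overlap. Its effects were -0.51 ± 0.10 and 0.53 ± 0.17, and the difference was -1.04 ± 0.20 with an adjusted p of 0.00227 (edgeR).

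Nppa, which encodes atrial natriuretic peptide, also had opposite signs, but atrial markers moved with its acute effect. Acute Ctrl hearts ranged from 38.8 to 1836 CPM (median 931) and acute Doxo hearts from 28.6 to 636 CPM (median 46.5). Chronic Ctrl hearts had 199, 84.9, 77.8, 65.2 and 79.4 CPM and chronic Doxo hearts 117 to 529 CPM (median 299), so that only the highest Ctrl heart lay in the Doxo range. The effects were -1.86 ± 0.59 and 1.58 ± 0.93 (1.34 without replicate 2), with a difference of -3.44 ± 1.10 and an adjusted p of 0.0364 (edgeR). Beside it, the other 6 atrial markers summed to medians of 2014 CPM in acute Ctrl and 27.7 CPM in acute Doxo hearts and to at most 17.1 CPM in the chronic hearts, and their part in the acute effect was not tested. Leaving out any of 6 chronic hearts (Ctrl replicates 2 to 5, Doxo replicates 1 and 6) ended that call, with adjusted p-values up to 0.0688, as did Myh4 as a covariate (0.0672) and the replicate number as a block (0.18).

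Of 6 skeletal muscle markers, the difference was called for 5, for 3 with the acute effect above the chronic one and for 2 below. In acute Doxo 2 of the 6 fell and 0 rose. Acta1 was at 51.4 to 473 CPM in acute Ctrl and 9.25 to 182 CPM in acute Doxo hearts. Ckm was at 815 to 1432 CPM in acute Ctrl and 280 to 1222 CPM in acute Doxo hearts. Other skeletal muscle genes stood out through the chronic hearts. Myh4, Tnnt3, the fast troponin T gene, and Mylpf, a fast myosin light chain gene, had chronic effects of -1.05, -1.10 and -0.85, and chronic Ctrl replicates 1 and 2 were the highest hearts for each of them. The difference had adjusted p-values of 0.0124 for Tnnt3 and 0.0135 for Mylpf (edgeR), and both calls were lost by limma voom (0.176 and 0.298), among hearts under 100 CPM of Myl4 (0.0638 and 0.0839) and with Myh4 as a covariate (0.268 and 0.582), that on Mylpf also without chronic Ctrl replicate 1 (0.0539). The acute hearts held at most 0.0732 CPM of Myh4, so no acute fold is given for it.

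The genes that the study showed for each regimen were chosen on these samples and are not independent evidence of direction. Its chronic sets are members of gene terms, on mitochondrial functions and PML nuclear bodies, found by testing whole terms. They were not presented as genes called singly. The study, also with edgeR, separately reports a small number of genes called in chronic Doxo against Ctrl. The edgeR fit used here called no gene in that comparison, and the reason was not tested. All 30 genes shown as higher in acute Doxo rose in the acute study, 24 of them with an acute effect above the chronic one, and their medians were 1.60 and 0.07 (0.03 without replicate 2). All 10 shown as lower fell, 9 of them below the chronic effect, with medians of -0.67 and -0.04. Of the 20 genes shown as higher in chronic Doxo, 0 were called in the chronic hearts and 16 rose in acute Doxo, with medians of 0.32 and 0.13 (0.08 without replicate 2). Of the 31 shown as lower in chronic Doxo, 0 were called in the chronic hearts and 29 fell in acute Doxo, with medians of -0.45 and -0.17 (-0.12 without replicate 2). The difference between the studies was called for 4 genes in each of the chronic sets, beside 19.3% of all genes.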

How the data were processed

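RNA was sequenced from hearts of Ctrl and Doxo mice of an acute and a chronic study. The authors prepared poly(A) libraries, sequenced them on a NovaSeq at a separate site for each study, and per the labels' processing notes aligned reads to mm10 with STAR 2.7.3a and counted them with featureCounts 2.0.0, and the deposited values were raw counts per gene symbol, with 1 table for each study. Reads were single-end according to the labels. Annotation and strand setting are not given in the sources used here.

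The tables were joined by gene symbol. Genes were filtered with filterByExpr by group, scaled with TMM and fitted together over 4 groups with the quasi-likelihood F-test of edgeR 4.0.16 (R 4.3.3). P-values were adjusted by Benjamini-Hochberg over all tested genes. Standard errors are Wald errors of the same fit. Gene positions come from GENCODE vM21 (GRCm38). CPM uses TMM-scaled library sizes. The same fit was also run on simulated counts with planted effects.

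Alternatives were DESeq2 1.42.0, limma 3.58.1 voom with sample weights, RLE scaling, 2 other filters, halved acute counts, a 1.5-fold limit, Myl4 as a covariate or limit, a replicate block, each study alone and each heart left out. Myh4 as a covariate and leaving out both hearts that stood apart were added after seeing the data. Members, gene lists and tests were chosen with earlier results of these data known. Genes were named as the 6 in each direction with the smallest interaction p among genes of the acute study alone, the 3 with the smallest interaction p in each list, genes the study showed, and others chosen after their values were seen, the text naming part of them. The last are those of the passages on separated chronic hearts, chaperones and the difference alone. Lists whose values are not in the report are given in the closing section. Hearts are separate animals. Replicate numbers were checked for pairing and do not pair the hearts.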

Additional observations from a re-analysis of the deposited data

Results flagged for a closer look

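Single hearts lay far from the rest of their group by Dixon's test of the gap at one end of a group, which chance alone passes in about 1 of 20 groups. Among the 47 genes with values examined, chronic Doxo replicate 2 was such a heart on the high side for 19 and on the low side for 3, and its position along the acute change, 0.529, was as well. On the high side it held 22950 CPM of Myh7, 7356 of Lpl, 4954 of Hspb7, 1324 of Sqstm1, 512 of Ctgf, 227 of Psmc1, 205 of Per1, 196 of Fkbp5, 187 of Cirbp and 119 of Rbm3. It also held 119.8 CPM of Ppargc1a, 116 of Cdkn1a, 103 of Nqo1, 92.6 of Adrm1, 47.5 of Gclm, 29.7 of Serpina3n, 22.1 of Hmox1, 10.8 of Cdhr3 and 1.48 of S100a8. On the low side it held 30.1 CPM of Col6a1, 20.3 of Fbn1 and 7.86 of Col3a1. Chronic Ctrl replicate 1 stood apart with 5251 CPM of Lpl, 199 of Nppa and 13.6 of Tgfb2 on the high side and 25.7 of Nqo1 on the low side, and chronic Ctrl replicate 5 with 7.01 CPM of Myl4.

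The Doxo effect differed between the studies, by the interaction term, for 2887 genes, among them the following (log2 difference, acute minus chronic). The acute effect was above the chronic one for Serpina3n (4.55), Socs3 (4.28), Hmox1 (2.73), Btg2 (2.62), Nqo1 (2.22), Srxn1 (2.21), Ier3 (2.11), Per1 (2.10), Ankrd23 (1.92), Ppp1r3a (1.81), Gclm (1.58), Rbm3 (1.41), Sqstm1 (1.40), Cirbp (1.38), Lpl (1.14), Psmc1 (1.06), Hspb7 (0.97) and Adrm1 (0.86). It was above for the skeletal muscle genes Tnnt3 (1.52) and Mylpf (1.25). It was below for Hbb-bs (-5.68), Nppa (-3.44), Col3a1 (-2.65), Brca1 (-1.99), Col6a1 (-1.86), Ppargc1a (-1.77), Ramp1 (-1.69), Fbn1 (-1.32), Cep128 (-1.04) and Nt5e (-0.77). The studies also differed in daily vehicle injections, time since dosing, age, supplier and sequencing site, which cannot be told apart from the regimen.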

How the results depend on the processing

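Precision in the chronic study is limited by 11 hearts at 17624351 to 23425344 counts. In the chronic hearts DESeq2 called 5 genes, of which 4 were also called in the acute study in the same direction and 1 in the chronic study alone, and limma voom with sample weights called 66, of which 50, 4 and 7 were shared, opposite and chronic alone. Limma voom called 6995 differences and 6708 genes of the acute study alone. Halved acute counts gave 1 chronic call, shared with the acute study. Among hearts under 100 CPM of Myl4 there were 743 differences and 736 genes of the acute study alone, and with Myh4 as a covariate 459 and 456, with 596 genes whose chronic interval lay within 1.5-fold. Leaving out both hearts that stood apart gave 1 chronic call, a shared one, with 5325 differences, 5275 genes of the acute study alone and 1921 intervals within 1.5-fold. Asking for a 1.5-fold change left 4667 acute calls, 1872 differences and 1699 genes of the acute study alone. The causes were not tested.

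With each heart left out in turn, acute calls ran from 9553 to 10208, chronic calls from 0 to 3, differences from 2073 to 4604, genes of the acute study alone from 2052 to 4559, shared genes from 0 to 3, chronic-alone and opposite genes from 0 to 0, and intervals within 1.5-fold from 947 to 1634. The highest count of differences came without the library labelled acute Doxo replicate 6. With the replicate number as a block there were 1227 differences and 1220 genes of the acute study alone, with 9121 acute and 0 chronic calls. The numbers do not pair the hearts, since same-numbered Ctrl and Doxo hearts had a median correlation of their deviations of -0.12 (acute) and -0.04 (chronic). Over the genes named, the difference lost its call in 63 of the gene and setting pairs and kept it in 1452, and no direction turned among them. Most of the losses were those of Myh4, which had almost no counts in acute hearts, Nppa and Col3a1.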

Other observations

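Gene lists that the report does not describe gave the following counts, beside 33.6% of all genes higher and 32.4% lower in acute Doxo. Of 24 measured genes of the ATF4 and integrated stress response, 13 rose and 6 fell, with a median acute effect of 0.78 and a median chronic effect of 0.14 (0.04 without chronic Doxo replicate 2). Of 13 muscle atrophy and FOXO genes, 7 rose and 1 fell, with medians of 0.74 and 0.18 (-0.05 without that heart). Of 8 metallothionein and zinc transport genes, 3 rose and 1 fell, with medians of 0.41 and 0.08. Of 29 interferon-stimulated genes, 9 rose and 8 fell, with medians of 0.01 and -0.21 (-0.12 without that heart). Of 21 sarcomere genes, 11 rose and 8 fell, with medians of 0.21 and 0.13. Of 23 fatty acid oxidation and fasting genes 5 rose and 5 fell, and of 17 glycolysis and glucose uptake genes 4 rose and 7 fell. Of 24 NAD+ metabolism genes, 7 rose and 8 fell, with medians of 0.04 and -0.03.

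Lists with more members lower than higher in acute Doxo included 21 ion channel and connexin genes, of which 14 fell and 2 rose, with medians of -0.52 and -0.07. Of 38 cell proliferation genes, 20 fell and 5 rose, with medians of -0.42 and -0.21 (-0.19 without that heart), and 32 had the same sign in both studies. Of 23 cholesterol synthesis genes, 13 fell and 3 rose, with medians of -0.28 and 0.10. Of 15 macrophage genes, 8 fell and 2 rose, with medians of -0.39 and -0.37 (-0.29 without that heart), and of 9 measured lymphocyte genes 5 fell and 2 rose. Of 16 calcium handling genes 5 fell and 3 rose. Of 20 endothelial genes 7 fell and 7 rose. Of 8 topoisomerases and their repair enzymes, 2 fell and 1 rose, and of 7 cyclin-dependent kinase inhibitors 1 fell and 2 rose.

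Of the 13 protein-coding genes of mitochondrial DNA, 2 rose in acute Doxo and 0 fell, with a median of 0.01. In the chronic study their median was -0.15, and 3 had an unadjusted p under 0.05 on the lower side with chronic Doxo replicate 2 and 3 without it, beside 2.02% of all genes with it, while 0 were called after adjustment (edgeR).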
